A study of Mus musculus with 4 samples.

Results

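Interneurons that read Adarb2 were taken from single-nucleus RNA counts of mouse hippocampus, and 964 of the 57350 nuclei in the files met the rule. The members were chosen by measured values: at most 20% mitochondrial transcripts (counted as unique molecular identifiers, UMIs), at least 2 UMIs of Gad1 and Gad2 together and at least 3 per 10000, and at least 3 UMIs of Adarb2, Vip and Npas1 together. That last sum also had to exceed the sum of Lhx6, Nxph1, Sst and Pvalb. Hapln1 and Egfr together were limited to 1 UMI, and Drd1, Drd2 and Rgs9 together to 2. The levels of these genes are therefore a description, with the exception of Vip in the tests between conditions, as explained with its values.

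The nuclei came from 8 pools, and each pool held the hippocampi of 3 male mice. C57BL/6 mice were given control chow (Control-Vehicle and Stress-Vehicle) or chow with 1200 mg/kg PLX5622, a CSF1R inhibitor that depletes microglia, for 7 days before stress (Control-PLX5622 and Stress-PLX5622). Mice bred in-house were either IL-1R1+/+ without Cre (Con-IL-1R1+/+ and Stress-IL-1R1+/+) or nIL-1R1-/- with Cre driven by Vglut2 (Con-nIL-1R1-/- and Stress-nIL-1R1-/-). Vglut2 is a transporter of glutamatergic neurons, so interneurons are not the intended target of this Cre. Stress was repeated social defeat (RSD), 2 h with a CD-1 aggressor on each of 6 nights, and nuclei were collected 14 h later; control mice were left undisturbed. The purchased mice were 5 to 7 weeks old, and the age of the bred mice was not given in the sources used here. With 1 pool per condition, the replicates of RSD were 4 pairs of pools (Vehicle, PLX5622, IL-1R1+/+ and nIL-1R1-/-), which differ in diet, genotype and colony.

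Interneurons of the caudal ganglionic eminence migrate to the hippocampus late in development and keep factors such as Prox1 and Nr2f2, whereas those of the medial eminence use Lhx6 and Sox6. The caudal group includes cells that release vasoactive intestinal peptide (Vip), of which many inhibit other interneurons, and basket cells with cholecystokinin and the cannabinoid receptor Cnr1. Adarb2 is an RNA-binding relative of the RNA editing enzymes, Npas1 is a basic helix-loop-helix transcription factor of this lineage, and Igf1 is a secreted growth factor made by many Vip cells. Vip transcription is induced by cAMP signalling and activity, through CREB-type factors that bind TGACGTC-like elements upstream of the gene.

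Vip lies on chromosome 10 (GRCm39, 5589186 to 5599956, plus strand). The 250 bases before its start are shown because Vip was the gene of the rule whose level differed between the conditions; they are RefSeq sequence of build GRCm38.p6, chr10:5638968-5639217, plus strand, with TGACGTC in capitals.
Vip: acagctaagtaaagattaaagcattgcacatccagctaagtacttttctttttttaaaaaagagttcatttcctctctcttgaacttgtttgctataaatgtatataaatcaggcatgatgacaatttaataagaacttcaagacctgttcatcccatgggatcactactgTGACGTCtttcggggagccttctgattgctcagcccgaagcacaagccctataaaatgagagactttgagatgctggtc
The letters TGACGTC stood 79 to 73 bases before the start. On either strand (TGACGTC or GACGTCA) they occurred in 914 of 32851 promoters of the table, or 2.78%. The 8-letter form TGACGTCA occurred in 1.55% of promoters and not in this one, and the shorter TGACG, which lies within TGACGTC, occurred in 17.8%. A match is a description of the letters only.

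The label of Vip cells held for few of the nuclei. Adarb2 (chromosome 13, 8252897 to 8818800, plus strand) had a UMI in 99.8% of members, with a median of 31 UMIs, and gave 81262 of the 82113 UMIs of Adarb2, Vip and Npas1. A Vip UMI was found in 70 of 964 members, or 7.26% (95% exact interval 5.7 to 9.09), and 36 of those nuclei held exactly 1. Npas1 was found in 29.1% and Igf1 in 37.1%. In the 48551 nuclei with no Gad1 or Gad2 UMI, which were shallower (median 1609 UMIs against 4556), the shares were 47.6% for Adarb2, 0.235% for Vip, 0.91% for Npas1 and 1.2% for Igf1. An Adarb2 UMI was thus common outside the selection, and Vip was read in a small share of the members, so they are called Adarb2 nuclei here.

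Gad1 was read in 85.0% of the Adarb2 nuclei and Gad2 in 76.1%. Dlx6os1, a long noncoding RNA of forebrain interneurons, was read in 73.2%, Erbb4, the neuregulin receptor of interneurons, in 87.8%, and Prox1 in 28.9%. Reads of other cells were present as well. Slc17a7, a transporter of excitatory neurons, had a UMI in 11.1% of members, and the myelin gene Mbp in 35.0%.

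Many nuclei lay close to the limits of the rule. There were 41 members with exactly 3 UMIs of the Vip set, and 37 nuclei that met the rest were left out with 2. At the Gad1 and Gad2 limit, 334 members had exactly 2 UMIs and 680 nuclei were left out with 1. Of Hapln1 and Egfr, 153 members carried 1 UMI and 72 nuclei were left out with 2. No barcode was shared between pools.

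The Adarb2 nuclei fell into 11 clusters, which are named here by the gene with the highest ratio of its level in the cluster to that in other members, and which carry no test. The Grm8 cluster (131 nuclei) held 47 of the 70 nuclei with a Vip UMI and 104 of the 144 Vip UMIs. Its other leading genes were Wnt5b, a secreted Wnt ligand, Sema5b, an axon guidance protein, and Adra1b, an adrenergic receptor. Igf1 was read in 47.3% of its nuclei and Prox1 in 48.9%, so most Vip reads of the members sat in about 1 nucleus in 7.

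The Frem1 cluster (111 nuclei) was led by an extracellular matrix gene and by Slc17a8, the vesicular glutamate transporter found in some cholecystokinin basket cells, and Cnr1 was read in 84.7% of it. In the Cpne5 cluster (89 nuclei) Cnr1 was read in 87.6%, and the level of Adarb2 was the highest of the 11, with a median of 169 UMIs. The Ndnf cluster (125 nuclei) was led by Ndnf, a secreted factor, and Reln, the extracellular protein reelin, and held no Vip UMI. Smaller clusters were led by Kit (66 nuclei, with Sv2c, a synaptic vesicle protein), Stk32a (54), Adgrg6 (44, with the muscarinic receptor Chrm2) and Mctp2 (41, with Vcan). Outside the Grm8 cluster, a Vip UMI was found in 9 nuclei of the Frem1 cluster, 8 of the Cpne5 cluster and 2 of the Adgrg6 cluster, and in 3 and 1 nuclei of the Sox6 and Otx2os1 clusters described next.

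Another 3 clusters carried genes of other cells. The Otx2os1 cluster (125 nuclei) was led by Otx2os1, Zfhx3, Foxp2 and Cdh18, with Meis2 and Gata3, transcription factors of inhibitory neurons outside the hippocampus; Adarb2 had a median of 16 UMIs there. The Glis3 cluster (95 nuclei, median 8 Adarb2 UMIs) read Bdnf in 23.2% and Slc17a7 in 26.3% of nuclei, and had no Vip and no Npas1 UMI. The Sox6 cluster (83 nuclei, median 11 Adarb2 UMIs) was led by Sox6 and Mertk. Without these 3 clusters, a choice made after the data were seen, 661 members (68.6%) remained. They still held nuclei with such genes: the Adgrg6 cluster, which was kept, read Meis2 in 70.5% of its 44 nuclei, against 36.0% in the Otx2os1 cluster.

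The Otx2os1 cluster was concentrated in 1 pool: 94 of its 125 nuclei came from Con-IL-1R1+/+, where they were 45.0% of the members, and 15 came from Stress-IL-1R1+/+. The summed level of 11 markers of inhibitory neurons outside the hippocampus was 1195 UMIs per 1000000 UMIs (CPM) in the Adarb2 nuclei of Con-IL-1R1+/+ and 398 in those of Stress-IL-1R1+/+. In the other pools it was between 117 and 202. All 11 markers had UMIs, and Zfhx3 gave 43.1% of them. The results below that involve this pool are given with and without the 3 clusters, and with and without the pool where it decides a count.

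**Figure D1:**
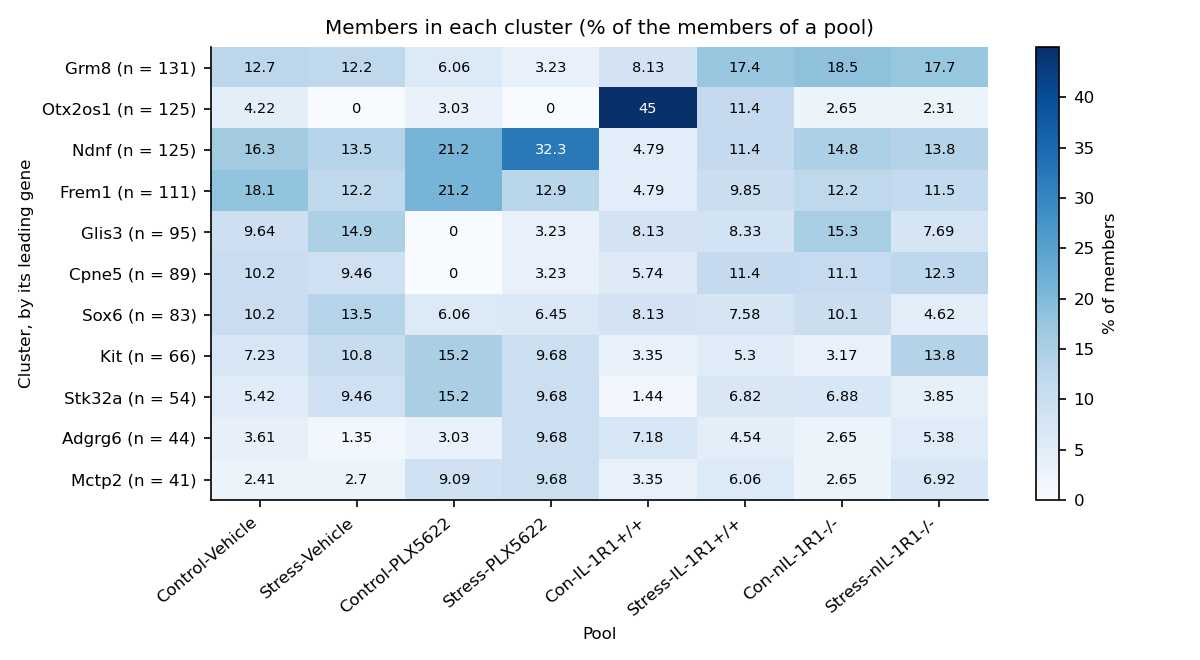
Share of the Adarb2 nuclei of each pool (columns) that fell in each of 11 clusters (rows, named by their leading gene, with the number of nuclei), in % of the members of that pool. The Otx2os1 cluster made up 45.0% of Con-IL-1R1+/+ and at most 11.4% of the other 7 pools.

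The Adarb2 nuclei were 1.7% (1.59 to 1.81) of the nuclei kept, and their share was lower in the stress pool of every pair. It was 1.96% in Control-Vehicle and 1.01% in Stress-Vehicle, 0.447% in Control-PLX5622 and 0.404% in Stress-PLX5622, 2.77% and 2.25% in the IL-1R1+/+ pair, and 2.9% and 2.15% in the nIL-1R1-/- pair, control before stress. The control mean was 2.02% ± 1.13 (SD, n = 4) and the stress mean 1.45% ± 0.898 (SD, n = 4). The mean difference over pairs was -0.566 percentage points (SD 0.39), with p = 0.13 in a two-sided exact permutation test over the 4 pairs, which is the smallest p that 4 pairs can give. Depth differed between these pools. Median UMIs per kept nucleus were 2563 in Control-Vehicle and 1325.5 in Stress-Vehicle, 598 and 628 under PLX5622, 3098.5 and 3218.5 in IL-1R1+/+, and 5012 and 2580 in nIL-1R1-/-. When every nucleus was thinned to 1000 UMIs, which left out 17837 shallower nuclei, the stress pool was higher in 2 of 4 pairs and the mean difference was 0.0475 percentage points (exact p = 0.75). Without the 3 clusters it was -0.122 percentage points (exact p = 0.625).

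**Figure D2:**
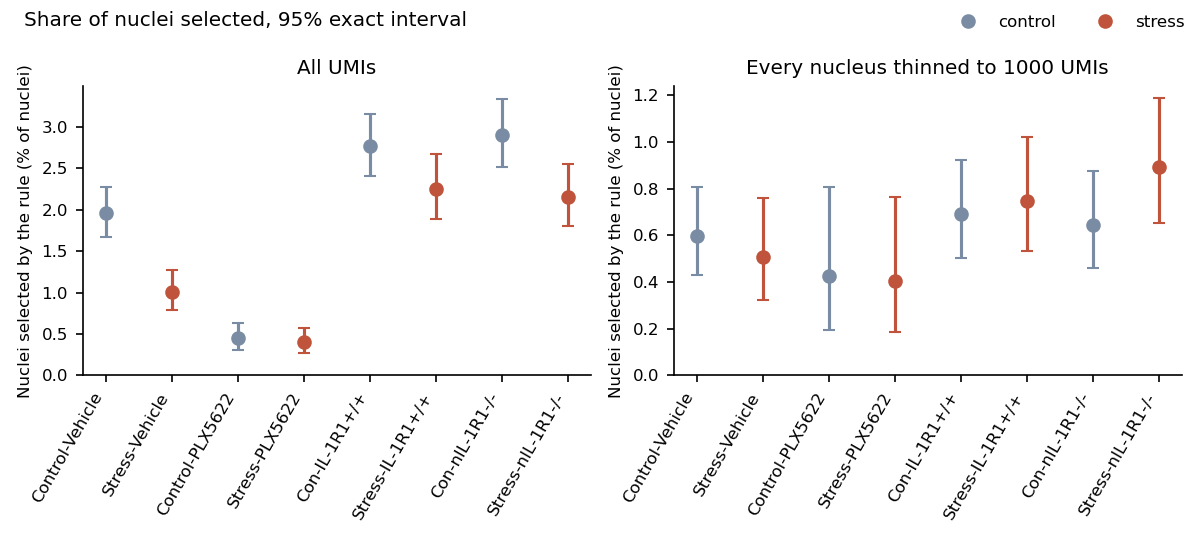
Share of nuclei that met the rule in each pool, in % of nuclei with 95% exact intervals, from all UMIs (left) and after every nucleus was thinned to 1000 UMIs (right). With all UMIs the stress pool (red) was below its control (grey) in 4 of 4 pairs, and after thinning in 2 of 4.

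Members per pool were 166 in Control-Vehicle, 74 in Stress-Vehicle, 33 in Control-PLX5622, 31 in Stress-PLX5622, 209 in Con-IL-1R1+/+, 132 in Stress-IL-1R1+/+, 189 in Con-nIL-1R1-/- and 130 in Stress-nIL-1R1-/-. Their summed UMIs ran from 74394 in Control-PLX5622 to 1853764 in Con-nIL-1R1-/-. Low genes in the PLX5622 pools were therefore read from few molecules. Counts of each pool were summed and compared with edgeR's quasi-likelihood test, with diet or genotype as a block and p-values adjusted over all genes tested.

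Vip was higher after RSD in the Adarb2 nuclei. In Control-Vehicle there were 7 Vip UMIs in 7 nuclei, or 6.32 CPM, and in Stress-Vehicle 20 UMIs in 7 nuclei, or 65.0 CPM. The IL-1R1+/+ pair read 15.6 CPM in control and 27.1 CPM in stress, and the nIL-1R1-/- pair 17.3 and 47.4 CPM. In Control-PLX5622 no Vip UMI was read among 33 nuclei, which by a limit of 3 counts allows a level of up to 40.3 CPM. The exact interval for the share of nuclei with a Vip UMI at this depth reached 10.6%, which does not limit the share that express Vip. In Stress-PLX5622 all 4 UMIs (42.5 CPM) were in 1 nucleus. As measured, the stress pools lay above the control pools, but the level that the 0 in Control-PLX5622 allows is above Stress-IL-1R1+/+, so a separation of the groups is shown for the other 3 control pools only. The fitted log2 fold change was 1.71 (SE 0.33, adjusted p = 0.0027 in edgeR).

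The rule without Vip selected the same 964 nuclei, so counting Vip in the rule did not alter which nuclei were members. The rule also limits Hapln1 and Egfr. An Egfr UMI was found in 27.1% of members with a Vip UMI and in 9.96% of the rest. Median UMIs per member were 4587.5 and 3618.5 in the Vehicle pair, 2167 and 2708 under PLX5622, 4826 and 4592.5 in IL-1R1+/+, and 6577 and 3395 in nIL-1R1-/-. The part of that limit in the Vip difference was not tested, and Vip has no value thinned to 1000 UMIs. Without the 3 clusters the log2 fold change was 1.38 (adjusted p = 0.021 in edgeR), and the IL-1R1+/+ pair then read 35.0 CPM in control and 31.5 CPM in stress. The call was lost in DESeq2 (log2 fold change 1.91, adjusted p = 0.24), without the block (1.69, adjusted p = 0.11 in edgeR), and when any 1 pair was left out (1.27 to 2.14, adjusted p between 0.067 and 0.2 in edgeR). The share of members with a Vip UMI was 4.62% ± 3.7 (SD, n = 4) in control and 8.33% ± 4.45 (SD, n = 4) in stress. It was higher in the Vehicle, IL-1R1+/+ and nIL-1R1-/- pairs, and the PLX5622 pair, 0 of 33 and 1 of 31 nuclei, shows no direction at this depth.

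The same pools read Vip in other inhibitory nuclei, given here as values from the same mice and not as independent support. In Hapln1 Egfr nuclei (Gad1 or Gad2 nuclei with at least 3 UMIs of Hapln1 and Egfr) the level was 42.5 CPM in Control-Vehicle and 109 CPM in Stress-Vehicle. It was 23.7 and 102 CPM in the IL-1R1+/+ pair, and 27.6 and 227 CPM in the nIL-1R1-/- pair. The PLX5622 pools held 2 and 1 such nuclei. In Lhx6 lineage nuclei, by contrast, 6 Vip UMIs were read in 1269 nuclei over all pools. The stress level in Hapln1 Egfr nuclei lay above the control level in each of the 3 pairs that could be read.

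**Figure D3:**
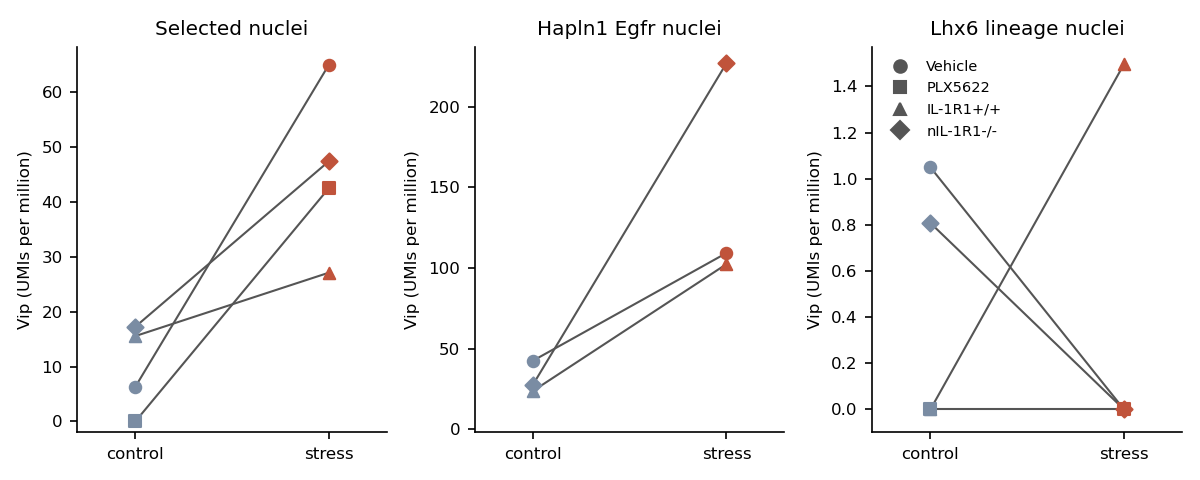
Vip in CPM in control and stress pools, 1 line per pair, in the Adarb2 nuclei (left), Hapln1 Egfr nuclei (middle; the PLX5622 pair is left out, with 2 and 1 nuclei) and Lhx6 lineage nuclei (right); the vertical scales differ. The 4 Adarb2 stress pools read 27.1 to 65.0 and the controls 0 to 17.3 (the 0 of Control-PLX5622 allows up to 40.3). The Lhx6 lineage pools read 0 to 1.5, where the 0 of Control-PLX5622 allows up to 26.1.

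Of 8903 genes tested in the Adarb2 nuclei, 13 rose (0.146%) and 15 fell (0.168%) with RSD, genes of the rule left out. As calculated, 23 of the 28 moved the same way in all 4 pairs, but some of these directions rest on few UMIs. Lef1 had 7 UMIs (6.32 CPM) in Control-Vehicle and 2 (6.5 CPM) in Stress-Vehicle, and Otx2os1 had 1 and 1 under PLX5622. Such pairs show no direction at this depth. The genes that rose included Adra1a, the alpha-1A adrenergic receptor that responds to noradrenaline, Rn7sk, a small nuclear RNA that restrains transcription elongation, Ptprn, a protein of dense-core vesicles that carry peptides, and Kcnk13, a potassium leak channel. Those that fell included Otx2os1, Cdh18, Tcf7l2 and Pbx3. At an unadjusted p under 0.05 there were 513 genes, or 5.76%. The counts depend on single pairs: without the IL-1R1+/+ pair 0 genes passed in edgeR (285 at an unadjusted p under 0.05), without the Vehicle pair 59, without the PLX5622 pair 3 and without the nIL-1R1-/- pair 8, and DESeq2 called 0 (178). Without the 3 clusters 8 rose and 3 fell, and 9 of these 11 were also among the 28.

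Adra1a (chromosome 14, 66872700 to 67012152, plus strand) read 136 CPM in Control-Vehicle and 211 in Stress-Vehicle, 134 and 287 under PLX5622, 75.0 and 187 in IL-1R1+/+, and 83.6 and 187 in nIL-1R1-/-. The lowest stress pool lay above the highest control pool. The log2 fold change was 1.07 (SE 0.17, adjusted p = 0.00018 in edgeR), and 0.84 (adjusted p = 0.0022) without the 3 clusters. Adra1a was a leading gene of the Kit cluster (658 CPM, against 111 in other members), which stayed in both fits. That cluster was 7.23% and 10.8% of members in the Vehicle pair and 15.15% and 9.68% under PLX5622. It was 3.35% and 5.3% in IL-1R1+/+, and 3.175% and 13.85% in nIL-1R1-/-. The part of the Kit cluster in the Adra1a difference was not tested. The Lhx6 lineage nuclei of the same pools read 75.5 and 143 CPM in the Vehicle pair, 78.2 and 292 under PLX5622, 79.0 and 164 in IL-1R1+/+, and 91.3 and 154 in nIL-1R1-/-. The higher level under stress was thus not particular to the Adarb2 nuclei in these pools, and the difference between the classes was not tested.

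Rn7sk (chromosome 9, 78082585 to 78082915, minus strand) read 72.2 CPM in Control-Vehicle and 192 in Stress-Vehicle, 94.1 and 138 under PLX5622, 34.7 and 141 in IL-1R1+/+, and 80.4 and 124 in nIL-1R1-/-. Its log2 fold change was 1.27 (SE 0.2, adjusted p = 0.00022 in edgeR), and 1.06 (adjusted p = 0.001) without the 3 clusters. Ptprn (chromosome 1, 75223671 to 75241146, minus strand) read 264 CPM in Control-Vehicle and 510 in Stress-Vehicle, 229 and 383 under PLX5622, 192 and 277 in IL-1R1+/+, and 221 and 332 in nIL-1R1-/-. For both genes every stress pool lay above every control pool. In the Lhx6 lineage nuclei Rn7sk read 67.7 and 157 CPM in the Vehicle pair, 122 and 47.3 under PLX5622, 32.9 and 135 in IL-1R1+/+, and 82.0 and 125 in nIL-1R1-/-. Ptprn read 274 and 447, 304 and 205, 230 and 262, and 188 and 222 CPM there, in the same order. Differences between the classes were not tested. The log2 fold change of Ptprn was 0.70 (SE 0.17, adjusted p = 0.032 in edgeR), and 0.68 (adjusted p = 0.03) without the 3 clusters. Under 16 alternatives Adra1a passed in 10, Rn7sk in 11 and Ptprn in 8, with log2 fold changes of 0.84 to 1.26, 0.91 to 1.6 and 0.62 to 0.87.

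Kcnk13, Dpysl5, a collapsin response mediator, Erdr1 and Ccnd3, which encodes cyclin D3, rose with log2 fold changes of 1.02, 0.70, 1.61 and 1.61 (adjusted p between 0.0066 and 0.044 in edgeR). None of these 4 passed without the 3 clusters, where their log2 fold changes were 0.66, 0.44, 1.38 and 1.2. Erdr1 was also higher under stress in the Lhx6 lineage nuclei. It read 19.4 and 84.3 CPM there in the Vehicle pair, 8.68 (1 UMI) and 63.1 under PLX5622, 7.18 and 30.7 in IL-1R1+/+, and 9.29 and 23.6 in nIL-1R1-/-. Kcnk13, Dpysl5 and Ccnd3 went both ways there. Scube1, a secreted or membrane-bound signalling protein, and the noncoding Mir670hg, which were picked after their values were seen, rose with and without the 3 clusters (log2 fold change 1.34 and 0.97 with all members) but not in every pair. Each passed in 11 of 16 alternatives, and thinned to 1000 UMIs Scube1 gave 0.49 (adjusted p = 0.97 in edgeR) and Mir670hg 0.71 (adjusted p = 0.87 in edgeR). Scube1 read 121 CPM in Control-PLX5622 and 117 in Stress-PLX5622.

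The genes that fell were mostly highest in Con-IL-1R1+/+. Otx2os1, a long noncoding RNA (chromosome 14, 48906165 to 49109111, plus strand), read 260 CPM there and 0 to 22.6 CPM in the other 7 pools. Cdh18, a cadherin, read 785 CPM there and 219 in Stress-IL-1R1+/+, and 186 and 136 in the Vehicle pair. Tcf7l2 and Lef1, transcription factors of the Wnt pathway, read 101 and 53.8 CPM in Con-IL-1R1+/+ and at most 40.3 and 13.4 elsewhere. Slit2, an axon guidance ligand, Fras1, a matrix protein, Tshz2, a zinc finger factor, Olfm3, an olfactomedin, and Prkg1, a cGMP-dependent kinase, fell with log2 fold changes between -1.2 and -0.79. Of these, Otx2os1 and Lef1 were too low to test without the 3 clusters, and the others did not pass there (adjusted p between 0.23 and 1.0 in edgeR). Their log2 fold changes there were -0.29 for Cdh18, -0.63 for Slit2, -0.59 for Tshz2 and -0.46 for Prkg1, while Tcf7l2 (-1.99), Olfm3 (-0.76) and Fras1 (-0.71) stayed closer to their values with all members (-2.23, -0.93 and -1.0). The part of the Otx2os1 cluster in the decrease was not tested.

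Pbx3, a homeobox factor (chromosome 2, 34061469 to 34263154, minus strand), fell in both fits. It read 68.6 CPM in Control-Vehicle and 19.5 in Stress-Vehicle, 67.2 and 42.5 under PLX5622, 173 and 67.8 in IL-1R1+/+, and 84.2 and 56.0 in nIL-1R1-/-. It was lower under stress in every pair, although Stress-IL-1R1+/+ lay just above Control-PLX5622. The log2 fold change was -1.07 (SE 0.22, adjusted p = 0.0044 in edgeR), and -1.35 (adjusted p = 0.00013) without the 3 clusters. It passed in 9 of 16 alternatives and gave -0.68 (adjusted p = 0.31 in edgeR) without likely doublets.

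**Figure D4:**
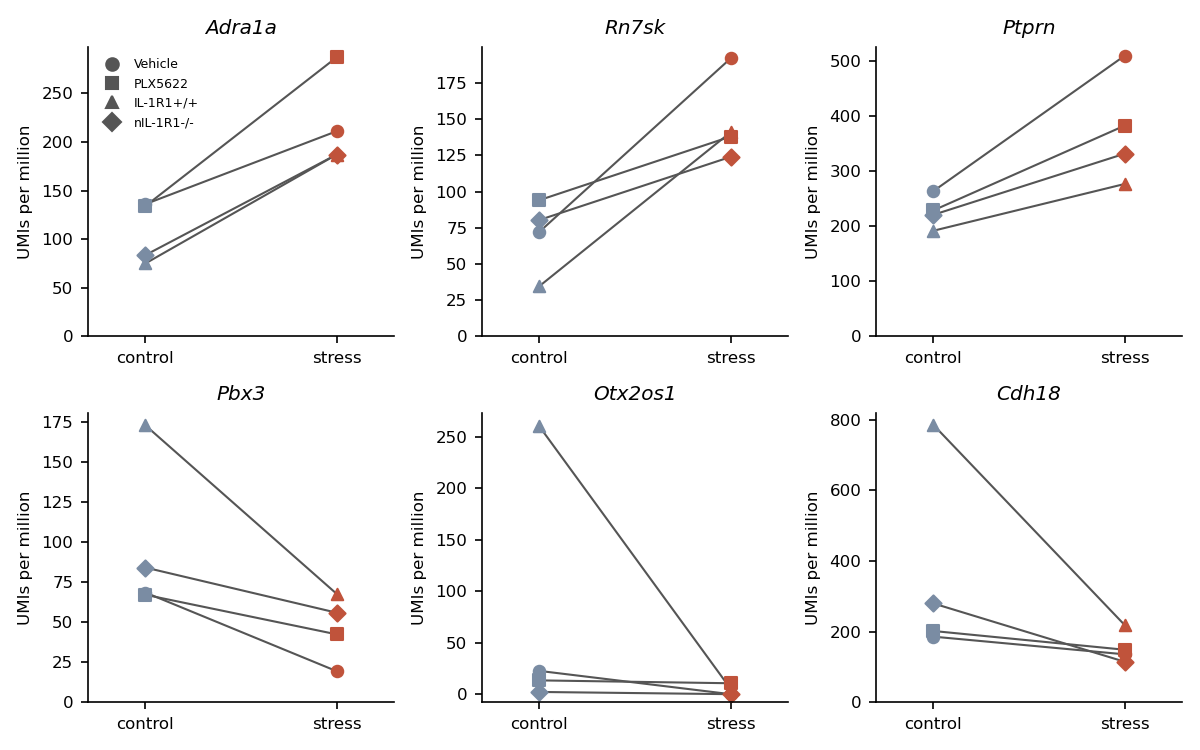
Levels of 6 genes in the Adarb2 nuclei, in CPM, in control and stress pools, with 1 line per pair. Adra1a, Rn7sk and Ptprn were higher in every stress pool than in every control pool, and Otx2os1 and Cdh18 were highest in Con-IL-1R1+/+ (260 and 785).

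In the gene lists the calls are to be read against the shares over all genes, 0.146% higher and 0.168% lower, at which lists of this size are left with few or none. Of 16 receptors for modulators tested, Adra1a rose and none fell (median log2 fold change 0.13, against -0.000936 over all genes). Of 7 genes of IL-1 receptor signalling tested of 14 listed, Il1rapl2, a synaptic relative of the IL-1 receptor accessory protein, fell (log2 fold change -0.86, adjusted p = 0.0092 in edgeR; -0.96 without the 3 clusters, adjusted p = 0.0022). It read 188 and 101 CPM in the Vehicle pair, 134 and 170 under PLX5622, 192 and 115 in IL-1R1+/+, and 192 and 71.8 in nIL-1R1-/-, so that the PLX5622 pair went the other way. It passed in 9 of 16 alternatives, and thinned to 1000 UMIs it gave -0.24 (adjusted p = 0.97 in edgeR). None of 16 genes of GABA handling and receptors, 18 glutamate receptor subunits, 12 ion channels, 5 caudal lineage factors, 4 peptides and secreted factors, 9 subtype markers, 7 IGF and insulin genes or 4 neuregulin genes passed. Median log2 fold changes of these lists lay between -0.15 and 0.52.

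The corticosteroid list had no call among 7 genes tested either (median log2 fold change 0.24). Fkbp5, a chaperone gene induced by glucocorticoid, gave 0.45 (SE 0.2, adjusted p = 0.789), and Per1, a clock gene that also responds to glucocorticoid, gave 0.65 (SE 0.23, adjusted p = 0.485). Among activity genes, Nr4a1 gave 0.62 (SE 0.26, adjusted p = 0.738) and Npas4 0.99 (SE 0.47, adjusted p = 0.821), all in edgeR. Igf1 gave 0.39 (SE 0.19, adjusted p = 0.824). Markers of oligodendrocytes, astrocytes, microglia, precursors and endothelial cells had no call; the myelin list summed to 291 and 562 CPM in the Vehicle pair, 672 and 117 under PLX5622, 260 and 151 in IL-1R1+/+, and 154 and 125 in nIL-1R1-/-, with Mbp at 50.6% of it.

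No gene passed for PLX5622 against vehicle in the Adarb2 nuclei, with the pairs of the diet experiment compared in edgeR (0 of 8903, 0%; 536 at an unadjusted p under 0.05). DESeq2 also called 0 (289 at an unadjusted p under 0.05), while edgeR called 3 with no filter on low counts and 3 with at least 20 UMIs in all. Some of the genes with the smallest p are given as values. Bc1, a noncoding RNA of dendrites, gave a log2 fold change of 1.28 (adjusted p = 0.13; 0.83, adjusted p = 0.66, without the 3 clusters) and Mrap2, an accessory protein of melanocortin receptors, 2.59 (adjusted p = 0.13; 2.61, adjusted p = 0.064, without the 3 clusters). Glis3, a zinc finger factor, gave -2.08 (adjusted p = 0.09; -1.31, adjusted p = 0.82, without the 3 clusters), and its cluster held 0 of 33 members in Control-PLX5622 and 1 of 31 in Stress-PLX5622. The median over all genes was -0.11, so these values should be read against that shift. Vip gave -0.35 (SE 0.87, adjusted p = 0.992), and none of the 21 lists had a call. With 33 and 31 nuclei, the error of these folds was large.

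Il1r1, the gene deleted in glutamatergic neurons of the nIL-1R1-/- mice, was rare in the Adarb2 nuclei. The IL-1R1+/+ control pool held 18 UMIs (12.7 CPM) and its stress pool 1 (1.04 CPM), with 7 (3.78 CPM) in Con-nIL-1R1-/- and 4 (5.75 CPM) in Stress-nIL-1R1-/-. The counts cover the whole gene in all members, and interneurons are not the intended target of the Cre. Members of the Glis3 cluster also read Slc17a7 (26.3% of its nuclei), a gene of excitatory neurons. The counts therefore check neither the label nor the deletion.

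The comparison of genotypes uses 4 of the pools that also entered the RSD comparison. Between nIL-1R1-/- and IL-1R1+/+, 9 of 8903 genes were higher (0.101%) and 19 lower (0.213%) in the Adarb2 nuclei. As calculated, all 28 had the same direction in control and stress pools. For the noncoding 2700069I18Rik, Stress-IL-1R1+/+ held 1 UMI and Stress-nIL-1R1-/- 0, so its direction in stress cannot be read. Higher were Ror2, a receptor for Wnt5 ligands (log2 fold change 1.48), and Wnt5b (1.3), Homer1, a postsynaptic scaffold (0.99), Nr4a3, an activity-induced nuclear receptor (1.31), Ndnf (1.08) and Fam107b (1.9), with adjusted p between 0.0017 and 0.049 in edgeR. Ror2 read 18.4 CPM in Con-IL-1R1+/+, 38.6 in Stress-IL-1R1+/+, 58.3 in Con-nIL-1R1-/- and 94.8 in Stress-nIL-1R1-/-. Homer1 read 77.1, 134, 203 and 198 CPM in the same order, so that for both genes the nIL-1R1-/- pools lay above the IL-1R1+/+ pools.

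Lower in nIL-1R1-/- were Otx2os1 (-6.69), Foxp2 (-2.95), Meis2 (-2.01), Tcf7l2 (-3.32), Lef1 (-3.26) and Tshz2 (-1.4), with Cdh18, Hmcn1, Samd5 and Klhl1 (-2.78 to -1.22). Foxp2 and Meis2 were 2 of the 5 tested markers of inhibitory neurons outside the hippocampus, and Foxp2 read 132 and 102 CPM in the IL-1R1+/+ pools and at most 19.5 elsewhere. Otx2os1, Foxp2, Cdh18 and Meis2 are leading genes of the Otx2os1 cluster, which made up 45.0% of Con-IL-1R1+/+ and 11.4% of Stress-IL-1R1+/+. Otx2os1 read 260 CPM in the first of these pools and 5.21 in the second. Meis2 read 164 CPM in Con-IL-1R1+/+, 185 in Stress-IL-1R1+/+, 46.4 in Con-nIL-1R1-/- and 38.8 in Stress-nIL-1R1-/-. The part of the Otx2os1 cluster in these differences was not tested. Without the 3 clusters none of the 28 genes that could be tested passed, and 4 others did, all lower. Otx2os1, Lef1, Fam107b, Hmcn1 and the noncoding 2700069I18Rik were not tested there. Some of the 28 kept folds of similar size there, with Wnt5b at 1.18 (adjusted p = 0.27) and Ror2 at 1.16 (adjusted p = 0.073 in edgeR), while Homer1 gave 0.16, Meis2 -0.64 and Nr4a3 -0.33. Of the 4, Chrm2, the M2 muscarinic receptor, read 492 CPM in Con-IL-1R1+/+, 193 in Stress-IL-1R1+/+, 103 in Con-nIL-1R1-/- and 124 in Stress-nIL-1R1-/- in those members (log2 fold change -1.54, adjusted p = 2.6e-08 in edgeR). With all members it gave -1.6 and did not pass (adjusted p = 1.0 in edgeR), so its call rests on leaving out clusters that were chosen after the data were seen. Chrm2 is a leading gene of the Adgrg6 cluster, of which 15 of 44 nuclei (34.1%) came from Con-IL-1R1+/+, a pool with 81 members left in that fit; the part of this cluster was not tested. Without Con-IL-1R1+/+, 2 genes passed with all members, without Con-nIL-1R1-/- 3, without Stress-nIL-1R1-/- 54 and without Stress-IL-1R1+/+ 106. Vip gave 0.53 (SE 0.39, adjusted p = 1), and Igf1 0.41 (SE 0.22, adjusted p = 1).

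The effect of RSD differed between nIL-1R1-/- and the other pairs for 1 of 10461 genes (0.00956%), Ttn, which encodes titin (difference of log2 fold changes 3.55, SE 0.71, adjusted p = 0.013 in edgeR). It read 106 and 74.7 CPM in the Vehicle pair, 0 and 31.9 under PLX5622, 135 and 13.6 in IL-1R1+/+, and 7.55 and 27.3 in nIL-1R1-/-. The nIL-1R1-/- side is 1 pair of pools, so this difference has no replicate of its own. The PLX5622 pair, with 0 and 3 UMIs, shows no direction, since the 0 in Control-PLX5622 allows up to 40.3 CPM. Without the 3 clusters the difference was 1.27 (adjusted p = 1.0). DESeq2 called 0 genes (26 at an unadjusted p under 0.05).

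Against the Lhx6 lineage nuclei (1269 nuclei in which Lhx6, Nxph1, Sst and Pvalb outweighed the Vip set), the Adarb2 nuclei were higher for 916 of 10779 genes (8.5%) and lower for 1008 (9.35%), with pool as a block and the genes of the rule left out. Both classes were gated on other genes of the same nuclei. Of 5 tested caudal lineage factors, 4 were higher: Prox1 (log2 fold change 2.23, SE 0.15), Nr2f2 (1.59, SE 0.24), Nfib (1.22, SE 0.094) and Nfix (0.97, SE 0.11). The median of this list was 1.22, against -0.0196 over all genes. Among the 11 clusters Prox1 was highest in the Glis3 cluster (307 CPM, 66.3% of its nuclei), which also read Slc17a7 and Bdnf. The part of that cluster in the Prox1 difference was not tested. The medial lineage factors Sox6 (-3.08, SE 0.11), Satb1 (-1.81, SE 0.11) and Maf (-0.49, SE 0.091) were lower.

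Cnr1, the presynaptic cannabinoid receptor, had the smallest p of all, with 315 CPM in the Adarb2 nuclei and 21.5 in the Lhx6 lineage (log2 fold change 3.86, SE 0.12, adjusted p = 5e-42 in edgeR). Of 10 tested subtype markers 8 were higher, among them Htr3a, the ionotropic serotonin receptor (4.84), Ndnf (3.66), Slc17a8 (3.05) and Kit (1.9), and Nos1 was lower (-1.19). Of the peptides and secreted factors, Cxcl14 (5.72), Cck (2.66) and Igf1 (2.62) were higher, and Tac1 (-3.09) and Npy (-1.11) lower. Igf1 read 171 CPM in the Adarb2 nuclei and 26.5 in the Lhx6 lineage, while Reln did not pass (0.21, SE 0.25). Other leading genes were Syt6, a synaptotagmin (4.59), Rgs12, a regulator of G protein signalling (4.23), Maml3, a Notch coactivator (1.8), Shisa9, an AMPA receptor accessory protein (1.43), and on the other side Gna14, a G protein subunit (-3.67), Rnf144b (-2.32) and Cemip, a hyaluronan-binding protein (-1.8).

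Beside 8.5% of all genes higher and 9.35% lower, 10 of 18 receptors for modulators were higher, among them Npy1r (2.64), Adra1b (1.69), Htr2c (1.63), the VIP receptor Vipr1 (1.29) and Crhr1, the receptor of corticotropin-releasing hormone (1.13), and 2 were lower, the opioid receptor Oprd1 (-1.78) and Cckbr (-1.15). Of 18 glutamate receptor subunits 7 were lower, including Gria3 (-1.3), Grik3 (-1.18), Gria1 (-1.16) and Gria4 (-0.99), and Grm2 (1.5) and Grm8 (0.49) were higher. Of 17 GABA genes, 5 were higher, including Gabra2 (1.01) and Gabra5 (0.68), and 7 lower, including Gabrd (-1.22) and Gabrg3 (-1.11). Of 12 ion channels 6 were lower, including Cacna1a (-1.0), Kcnc2 (-0.95) and Kcnc1 (-0.56), and 4 were higher, Kcnq5 (1.7), Cacna1g (0.49), Cacna1c (0.43) and Kcnd2 (0.41).

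The corticosteroid genes Zbtb16 (1.1), Fkbp5 (0.98) and the mineralocorticoid receptor Nr3c2 (0.95) were higher in the Adarb2 nuclei, and none of the 8 tested was lower. Il1rap, the accessory protein of the IL-1 receptor, was higher (0.82), Il1rapl1 (-0.44) and Il1rapl2 (-2.54) were lower, and Il1r1 itself gave 0.051 (SE 0.33). Adra1a did not pass (0.24, SE 0.099, adjusted p = 0.0863). Markers of excitatory neurons were higher for 3 of 4 genes (Neurod2 1.17, Slc17a7 0.83 and Camk2a 0.35), and Slc1a2, an astrocyte transporter, gave 0.87. Of 6 tested markers of inhibitory neurons outside the hippocampus, Meis2 (1.32, adjusted p = 0.039 in edgeR) and Tshz1 (0.68, adjusted p = 0.00018 in edgeR) were higher and none was lower; the part of all these markers in the other differences was not tested. All 20 genes named by rank in this comparison kept their direction and passed under every alternative run.

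**Figure D5:**
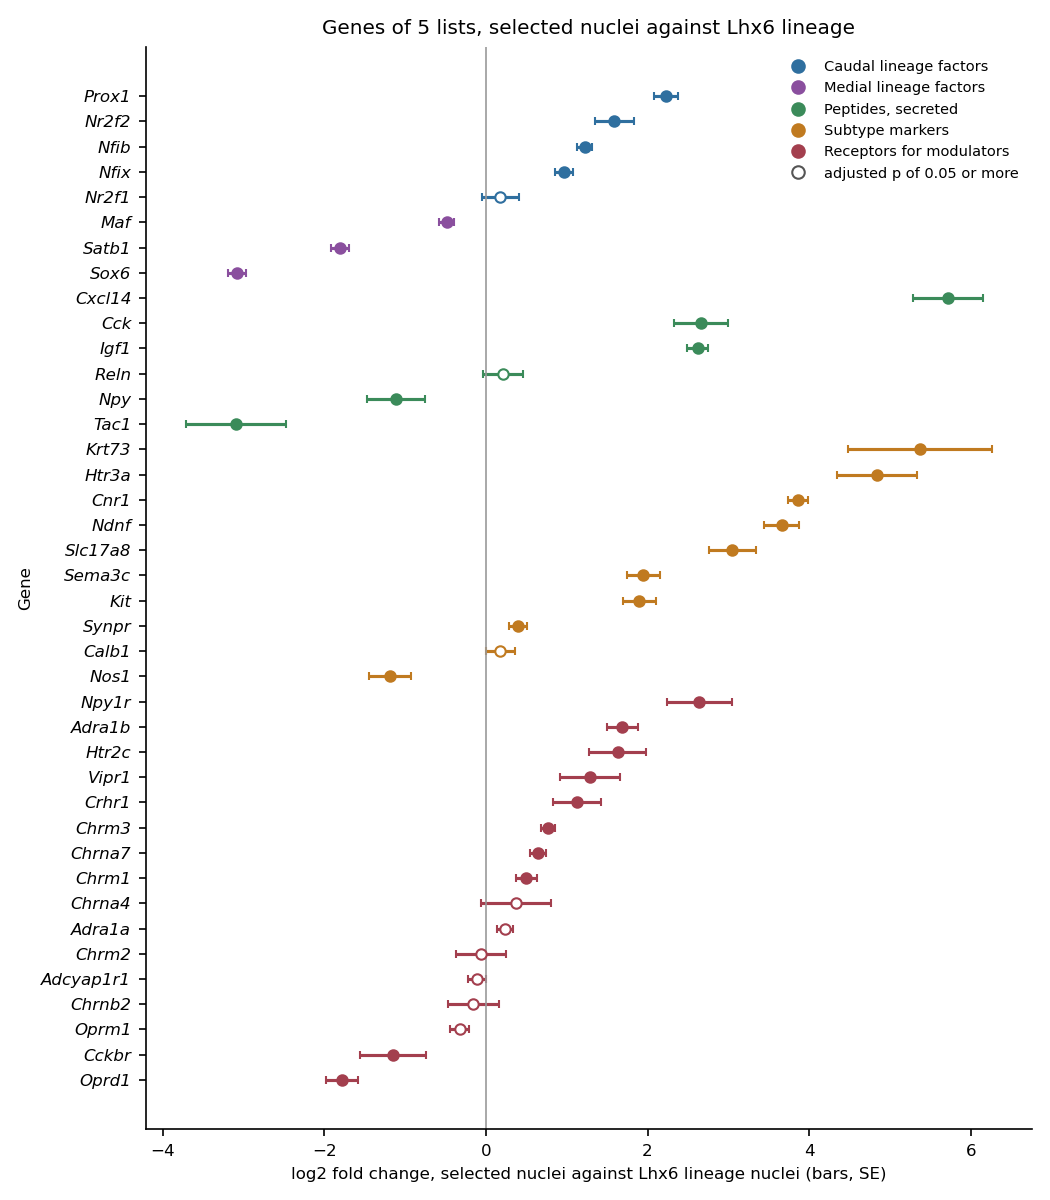
Log2 fold change, with its SE, of the Adarb2 nuclei against the Lhx6 lineage nuclei for genes of 5 lists, coloured by list; open points did not pass at an adjusted p of 0.05. Caudal lineage factors lie to the right (Prox1 2.23), medial lineage factors to the left (Sox6 -3.08). Among the clusters Prox1 was highest in the Glis3 cluster (307 CPM), which also read Slc17a7.

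Against the 277 Hapln1 Egfr nuclei the Adarb2 nuclei were higher for 310 of 8247 genes (3.76%) and lower for 341 (4.13%) in the 6 pools with enough nuclei. Higher were Slc17a8 (log2 fold change 4.41, SE 0.47), Syt6 (3.06, SE 0.2), Cxcl14 (1.79, SE 0.42), Htr2c (1.6, SE 0.15), Htr3a (1.59, SE 0.43) and Cnr1 (1.55, SE 0.19). Lower were Lamp5 (-2.55, SE 0.34), Hcrtr2, an orexin receptor (-2.47, SE 0.15), Kit (-2.01, SE 0.14), Sv2c (-2.0, SE 0.14), Nos1 (-1.72, SE 0.18), Reln (-1.12, SE 0.1) and Ndnf (-0.72, SE 0.2). Adra1a was also lower (-1.55, SE 0.11, adjusted p = 3e-11 in edgeR), as were Gabrg3 (-1.47) and Erbb4 (-1.29).

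As a description, with no test, Vip read 22.1 CPM in the Adarb2 nuclei and 58.6 CPM in the Hapln1 Egfr nuclei, in which 45 of 277 nuclei (16.2%) held 165 Vip UMIs. Of the 693 Vip UMIs of all kept nuclei, the Adarb2 nuclei held 20.8% and nuclei with no Gad1 or Gad2 UMI 21.2%. The other nuclei that met the limits on Gad1 and Gad2 held 31.0%, and the Hapln1 Egfr nuclei among them 23.8%. Among the members, 27.1% of nuclei with a Vip UMI also had one of Egfr, against 9.96% of the rest.

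Within the Adarb2 nuclei, the 70 with a Vip UMI were compared with 861 others of the same 7 pools, with pool as a block. Control-PLX5622 had no Vip nucleus and did not enter, and Stress-PLX5622 entered with 1 Vip nucleus of 3421 UMIs. In this comparison 99 of 3284 genes were higher (3.01%) and 128 lower (3.9%). The median depth was 3671.5 UMIs with a Vip UMI and 4663.5 in the 894 members without one. Higher were Wnt5b (log2 fold change 3.01, SE 0.31), Adra1b (2.36, SE 0.36), Grm8, a presynaptic glutamate receptor (1.99, SE 0.22), Elfn1, a synaptic protein (1.97, SE 0.26), Kcnt2, a potassium channel (1.75, SE 0.21), Synpr, synaptoporin (1.44, SE 0.21), Prox1 (1.31, SE 0.26) and Igf1 (0.93, SE 0.23). Lower were Tmem132d (-2.81, SE 0.37), Sgcz, a sarcoglycan (-2.43, SE 0.25), Ntng1, netrin-G1 (-2.19, SE 0.27), Meis2 (-2.01, SE 0.47), Chrm2 (-1.9, SE 0.36) and Reln (-0.87, SE 0.24).

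The arms of this comparison sat mostly in different clusters, since 47 of the 70 nuclei with a Vip UMI were in the Grm8 cluster, and 299 of the 894 without one were in the Otx2os1, Glis3 and Sox6 clusters. Without these 3 clusters, 66 nuclei with a Vip UMI and 565 without entered, and 100 of 2909 genes were higher and 131 lower. Wnt5b (2.91), Prox1 (1.93), Chrm2 (-1.95) and Reln (-1.12) still passed there (adjusted p between 9.5e-19 and 0.0002 in edgeR). Igf1 did not (0.57, adjusted p = 0.13 in edgeR), and Meis2, a leading gene of the Otx2os1 cluster, was too low to test.

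A Prox1 UMI was found in 58.6% of the Vip-reading nuclei and in 26.6% of the others, and Igf1 in 58.6% and 35.5%. Calb2, the calretinin gene of many interneuron-selective cells, was found in 8 of 70 nuclei (11.4%) and in 13 of 894 (1.45%). Ndnf went the other way, with 1 of 70 (1.43%) and 113 of 894 (12.6%). Nxph1, which the rule sets against the Vip set, was found in 22.9% and 50.7%, and Lhx6 in 0 of 70 and 30 of 894. Shares of single genes here are descriptions, with no test.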

How the data were processed

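Nuclei of 8 pools of 3 mice each were read in 4 sublibraries. The authors deposited UMI counts per nucleus and gene, whole numbers with no scaling, made with the Parse pipeline on mm39; their notes name Seurat 4.1.1, and nuclei over 20% mitochondrial UMIs were still present (516 of 57350, left out here). Each pool has a matrix of its own, and the treatment label gives its condition. The members and gene lists were chosen with earlier results of these data known.

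Counts of members were summed per pool and tested with edgeR 4.0.16 (R 4.3.3), with TMM factors, filterByExpr, robust quasi-likelihood and Benjamini-Hochberg adjustment at 0.05. All 8 pools entered 1 fit with diet or genotype and stress as terms, and class comparisons had pool as a block. CPM divides by all UMIs of the summed nuclei. Each condition is 1 pool: p-values for RSD rest on 4 pairs, those for genotype and for PLX5622 on 2 pools against 2, and those of the class comparisons on 8, 6 or 7 pools, while the difference of the RSD effect has 1 pair on one side. Same-numbered pools share diet or genotype, and their deviations correlated over 2000 genes (r = 0.254, 0.141, 0.19 and 0.305 for the 4 pairs). Shares carry 95% exact (Clopper-Pearson) intervals, which cover counting error only, and were compared by exact sign flips. A count of 0 allows up to 3. Members were clustered with Leiden (scanpy 1.11.5, 2000 variable genes, 20 components, resolution 0.6). Doublets were not removed in the main results. Genes named are the 10 with the smallest p in each direction among calls of 1 direction in every pair or pool (unnamed, mitochondrial and rule genes apart; where fewer than 5 passed, 5 as values only), and the genes of 21 lists. In data simulated for the RSD comparison, 58.8% of genes with a log2 fold change of 1 and 95.1% with 2 were recovered, with 4 false calls. The simulation gave all genes 1 common spread and had no differences between pairs or clusters. The real pools differ in these ways, so this recovery may not hold for them. Coordinates are of GENCODE vM39 and the promoter of RefSeq. Alternatives were other normalizations and filters, thinning, DESeq2 1.42.0, other limits of the rule, and leaving out replicates. Results for some genes are not reported here.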

Additional observations from a re-analysis of the deposited data

Results flagged for a closer look

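Several values of single pools stood far from the others of their group by the gap to the nearest pool over the range, which chance alone reaches in about 1 of 20 groups. Clusters and genes were both looked at, in control and in stress pools, so there were many such groups. Some of the values below can therefore arise by chance. In the control pools the Otx2os1 cluster was 45.0% of the members of Con-IL-1R1+/+, with the nearest pool at 4.22%, and Con-IL-1R1+/+ was also apart for Otx2os1 (260 CPM), Cdh18 (785 CPM), Foxp2 (132 CPM) and Pbx3 (173 CPM). In the stress pools Foxp2 was at 102 CPM in Stress-IL-1R1+/+, with the nearest at 19.5.

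Another 3 values came from the Vehicle and PLX5622 pools. The Ndnf cluster was 32.3% of the 31 members of Stress-PLX5622, with the nearest stress pool at 13.8%, and the Mctp2 cluster was 9.09% of the 33 members of Control-PLX5622, with the nearest control pool at 3.35%. Ccnd3 read 58.5 CPM in Stress-Vehicle, from 18 UMIs, with the nearest stress pool at 21.3 CPM.

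The effect of RSD on Ttn differed between nIL-1R1-/- and the other pairs by 3.55 on the log2 scale (adjusted p = 0.013 in edgeR), a difference that was 1.27 (adjusted p = 1.0) without the Otx2os1, Glis3 and Sox6 clusters.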

How the results depend on the processing

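Alternatives without the Otx2os1, Glis3 and Sox6 clusters, and the rule without Vip, were chosen after the data were seen. For RSD the count of 28 genes became 51 with all genes of at least 20 UMIs, 11 without the 3 clusters, and 0 when thinned to 1000 UMIs (151 at an unadjusted p under 0.05), in DESeq2 (178) and with no replicate block (268); leaving out 1 pair gave 0 to 59. For PLX5622 the count of 0 became 3 with no filter on low counts, 3 with at least 20 UMIs, and 1 without likely doublets, thinned, and without the 3 clusters (Syt6, lower); leaving out 1 pool gave 0 to 7. For nIL-1R1-/- against IL-1R1+/+ the count of 28 became 47 with no filter, 56 with at least 20 UMIs, 5 thinned, 4 without the 3 clusters and 3 in DESeq2; leaving out 1 pool gave 2 to 106. The difference of the RSD effect had 0 calls in DESeq2 (26) and without the 3 clusters (284). Against the Lhx6 lineage 1924 calls became 733 thinned and 1134 with no replicate block, and between nuclei with and without a Vip UMI 227 became 95 thinned; fewer genes were tested in each (4293, 8287 and 662).

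The share difference reversed to 0.0475 percentage points when thinned, and Nr4a3 to -0.334 on the log2 scale in nIL-1R1-/- without the 3 clusters. Among the other values of genes named by rank for RSD, genotype and the class comparisons, no direction changed. For RSD 123 of 272 values no longer passed, and for nIL-1R1-/- 68 of 225. Genes given for PLX5622 and for the difference of the RSD effect were not in this count. Against the Lhx6 lineage and the Hapln1 Egfr nuclei all 239 and 120 values passed. Without the replicate block, Vip was lost as a call for RSD (adjusted p = 0.11 in edgeR), and the cause was not tested. Depth limits the PLX5622 pools most, with 33 and 31 members and 74394 and 94103 UMIs.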

Other observations

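The 4 sublibraries each held Adarb2 nuclei of the 8 pools, 296, 186, 193 and 289 of them, which were 1.92%, 1.37%, 1.41% and 2.04% of the nuclei kept in each. As a share of nuclei with Gad1 or Gad2 at the limits of the rule, the Adarb2 nuclei were 166 of 553 in Control-Vehicle and 74 of 241 in Stress-Vehicle, 32.4% and 26.5% under PLX5622, 33.7% and 27.5% in IL-1R1+/+, and 32.0% and 30.5% in nIL-1R1-/-. The stress pool was lower in 3 of 4 pairs, by a mean of 3.23 points (p = 0.25 in a two-sided exact permutation test). Thinned to 1000 UMIs, it was higher in 2 of 4 pairs, by a mean of 1.6 points (exact p = 0.75). The Grm8 cluster, which held most Vip reads, was 12.7% and 12.2% of members in the Vehicle pair, 6.06% and 3.23% under PLX5622, 8.13% and 17.4% in IL-1R1+/+, and 18.5% and 17.7% in nIL-1R1-/-.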
